A study of Saccharomyces cerevisiae with 24 samples.

Results

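The acute high peroxide response of wild type yeast was read on the 4 arrays of cells given 0.4 mM hydrogen peroxide for 1 h with no pretreatment, out of 24 arrays in the series. The members are all open reading frames (ORFs) with a value on these 4 arrays, 6242 of the 6251 in the table, and were not chosen by how they changed. The cells were budding yeast (Saccharomyces cerevisiae) of the haploid MATa strain BY4741, grown in rich medium from separate colonies as the methods describe. At mid-log phase each culture was split, and after a further 45 min of growth either peroxide or a sham dose of phosphate buffer was added. The untreated RNA on an array is therefore that of the sham portion of the same culture. The treated poly(A) RNA was in Cy5 and the untreated in Cy3 on replicates 1 and 2 (here the Cy5 arrays), and the dyes were the other way round on replicates 3 and 4 (the Cy3 arrays). The comparison groups were 4 arrays of pretreated wild type cells (0.1 mM, 45 min in the labels, where the methods' protocol reads as a longer treatment) and 4 of adapted wild type cells (0.1 mM for 45 min, then 0.4 mM for 1 h). Values are log2 ratios of treated over untreated intensity. Where 4 values follow each other they belong to replicates 1 to 4 in order.

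Hydrogen peroxide oxidises cysteine thiols, releases iron from iron-sulfur clusters and feeds the formation of hydroxyl radicals. Budding yeast removes it with catalases and with thiol peroxidases, which are recharged by thioredoxin and glutathione and in the end by NADPH. In textbook accounts the activator Yap1, oxidised by a peroxidase, switches on these genes together with Skn7, while Msn2 and Msn4 drive a general stress programme and growth genes are turned down.

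The question was which genes moved when unprepared cells met the high dose, and the answer was most of the genome. An ORF is called raised or lowered here when its mean of 4 arrays differed from 0 at an adjusted p under 0.05 in limma (two-sided, Benjamini-Hochberg over 6242 ORFs). By this rule 2237 ORFs (35.8%) were raised and 2404 (38.5%) were lowered. With a change beyond log2 1 asked for in the test, 363 (5.82%) were raised and 373 (5.98%) were lowered. These are called past 2-fold below. Each SE given below comes from this limma fit, which pools the 12 wild type arrays and takes out a dye term. It is not the spread of the 4 acute values, and it leaves out only the part of their difference by dye orientation that the wild type groups share. Values given with an acute replicate left out are estimates of this fit, not plain means of the remaining arrays. The median over all tested ORFs was -0.02. The deposited table of spots, which is not centred, gave 4335 spots raised and 2493 lowered of 10807. All 4 arrays lay above log2 1 for 288 ORFs and below log2 -1 for 235. The values are relative within each array, so a change in total RNA per cell cannot be seen.

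The data behind these counts have limits that touch every value. Median intensities of the acute arrays were 597 to 612 in both channels. The 4 arrays were deposited with nearly equal quantiles of their ratios (largest difference 0.00729). The same rank therefore has the same value on each array, and the spread of the extreme genes is understated. Across ORFs, which are not independent replicates, arrays of the same dye orientation correlated at 0.97 (replicates 1 and 2) and 0.89 (replicates 3 and 4). Arrays of opposite orientation correlated at 0.60 to 0.73. The Cy5 and Cy3 means of an ORF differed by over log2 1 for 1073 ORFs (17.19%), and 3373 of the 4641 called ORFs had the same sign on 4 of 4 arrays. The strain could be checked in part: URA3, LEU2 and HIS3, which BY4741 lacks in whole or in part, had intensities of 27.4 to 138 in both channels. The MATa pheromone receptor gene STE2 had 2819 to 15003, and the MATalpha receptor gene STE3 had 66.0 to 141.

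TSA2, a stress-inducible cytosolic peroxiredoxin, headed the response. Its treated intensity was 13552, 16285, 64069 and 56754 against 138, 165, 650 and 576 untreated. This gave the highest ratio on each array, 6.62 on all 4, or 98.5-fold (SE 0.18, n = 4, adjusted p = 3.7e-11). The Cy3 arrays were brighter in both channels, at the same ratio. Behind it came OSI1 (named for induction by oxidative stress) at 5.71, 5.58, 5.71 and 5.86, with a mean of 5.71 ± 0.16 (SE, n = 4), 52.5-fold. SRX1, sulfiredoxin, which repairs overoxidised peroxiredoxins, rose 48.9-fold with 5.58, 5.99, 5.37 and 5.50. The 4 arrays of each of these genes lay far above 0. Their closeness in value is in part set by the near-equal quantiles, which give a rank the same value on each array. It shows that the ranks were alike and does not measure the spread in size. Further down, 20 ORFs had a mean above log2 4 and 49 a mean above log2 3, against 8 ORFs with a mean below log2 -3. The little-characterised ORFs YNL134C (5.34 ± 0.18) and YMR090W (5.15 ± 0.14, both SE, n = 4) rose to the level of known defence genes. HBN1, a putative nitroreductase, rose by 4.63 ± 0.10.

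The enzymes that remove peroxide rose as a group, and by very different amounts. Of 11 peroxidases and catalases, 11 were raised, 7 of them past 2-fold, with a median of 2.68. PRX1, the mitochondrial peroxiredoxin, read 4.83, 4.14, 4.54 and 4.83 (mean 4.58 ± 0.16, SE, n = 4, adjusted p = 2.3e-10). GPX2, a glutathione peroxidase, read 3.68, 3.43, 4.83 and 4.99 (mean 4.23 ± 0.13). Both were far above 0 on every array, and GPX2 was lower on the Cy5 arrays than on the Cy3 arrays. AHP1, a peroxiredoxin that also reduces alkyl hydroperoxides, read 4.54, 4.18, 1.25 and 1.90, so that its rise was called but its size depended on the orientation. TSA1, the main housekeeping peroxiredoxin, rose by 2.89 and CCP1, cytochrome c peroxidase of the mitochondrion, by 2.68. HYR1 (also known as GPX3), the peroxidase that senses peroxide for Yap1, rose by 1.07 and GPX1 by 0.87.

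The catalases stood low in this list. CTA1, the peroxisomal catalase, rose by 1.44 with 1.43, 2.26, 1.03 and 1.06. CTT1, the cytosolic catalase, read -0.28, 0.25, 0.34 and 0.58, below 0 on replicate 1 and above it on the other 3 arrays. Its mean of 0.22 ± 0.08 (SE, n = 4) was called at an adjusted p of 0.022, but not without replicate 2 (estimate 0.14) or without replicate 4 (estimate 0.15). Its spots were dim, with treated intensities of 114 to 212 and untreated intensities of 120 to 142. The superoxide dismutases, which turn superoxide into peroxide, rose about as much as TSA1. SOD1 (copper and zinc form) read 3.43, 3.03, 2.73 and 3.51 and SOD2 (mitochondrial manganese form) 3.09, 3.07, 2.51 and 2.98. CCS1, the copper chaperone of SOD1, rose by 0.75 ± 0.15.

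**Figure D1:**
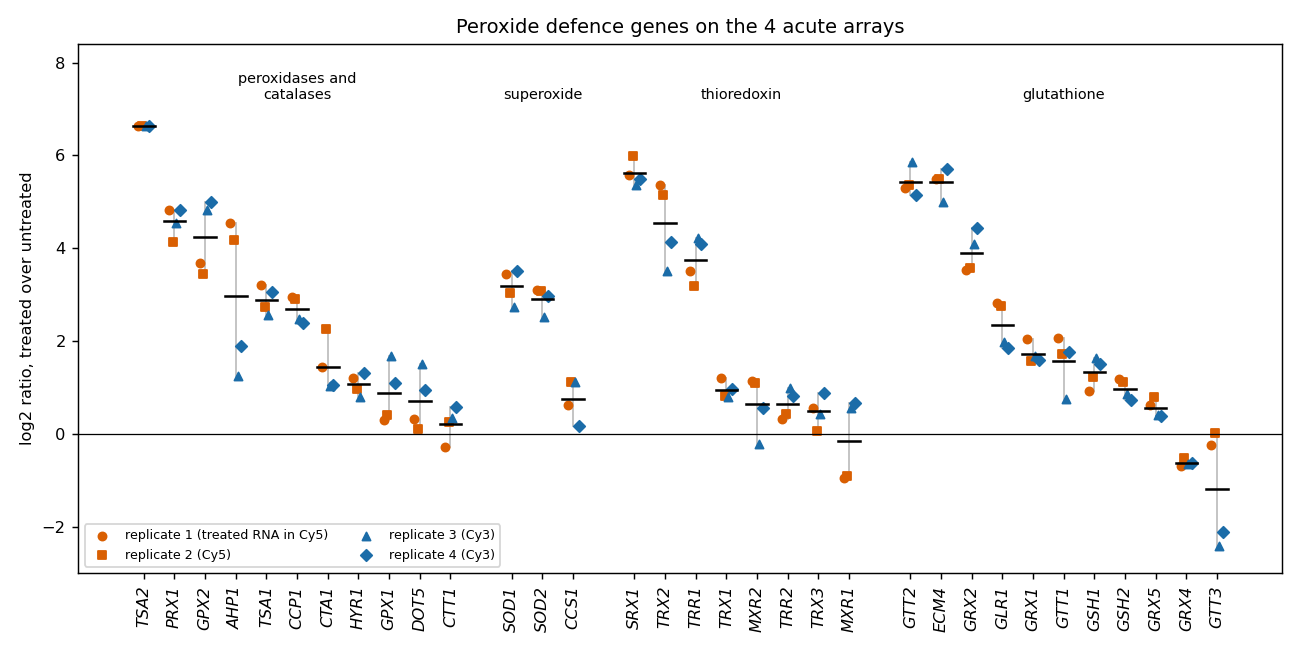
Log2 ratios (treated over untreated, vertical axis) of peroxide defence genes on each of the 4 acute arrays, by gene. Orange points are the Cy5 arrays, blue points the Cy3 arrays and black bars the mean of the 4 with a grey line over their range. TSA2 lies at 6.62 on all 4 arrays, SRX1 between 5.37 and 5.99, while AHP1 and GTT3 fall into separate pairs by dye orientation and MXR1 lies below 0 on the Cy5 arrays and above it on the Cy3 arrays.

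In the thioredoxin system, 7 of 8 members were raised and 3 of them past 2-fold, and the steep rises were those of the inducible cytosolic branch. TRX2, thioredoxin, read 5.37, 5.16, 3.52 and 4.14 (mean 4.55 ± 0.21, SE, n = 4), and TRR1, the cytosolic thioredoxin reductase, 3.52, 3.19, 4.22 and 4.08 (mean 3.75 ± 0.08). Their arrays differed by orientation in opposite senses, TRX2 being higher on the Cy5 arrays and TRR1 on the Cy3 arrays. TRX1, the close copy of TRX2, rose by 0.95, and the mitochondrial pair TRX3 and TRR2 by 0.48 and 0.63. MXR1, a methionine sulfoxide reductase, was not called, with -0.95 and -0.90 on the Cy5 arrays and 0.55 and 0.67 on the Cy3 arrays.

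The glutathione genes ranged widely. Of 22 members 15 were raised, 8 of them past 2-fold, and 5 were lowered (median 0.61). GTT2, a glutathione transferase, read 5.31, 5.37, 5.86 and 5.16 (mean 5.42 ± 0.12), and ECM4, an omega-class transferase, 5.50, 5.50, 4.99 and 5.71 (mean 5.42 ± 0.15, both SE, n = 4). These transferases were higher than every other glutathione gene on all 4 arrays. The glutaredoxin GRX2 rose by 3.91, against 1.72 for GRX1, and glutathione reductase (GLR1) rose by 2.35. The enzymes of glutathione synthesis rose less, GSH1, which catalyses the rate-limiting step, by 1.32 and GSH2 by 0.97. YCF1, the vacuolar pump for glutathione conjugates, rose by 1.45. Among the lowered members were GRX4, a monothiol glutaredoxin that binds iron-sulfur clusters, at -0.69, -0.53, -0.65 and -0.63, and GRX8 (mean -0.86). GTT3 was lowered on average by -1.19 but read -0.24 and 0.03 on the Cy5 arrays against -2.41 and -2.12 on the Cy3 arrays.

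The pathways that make NADPH did not move as 1 block. Of 18 members 9 were raised and 6 lowered, with a median of 0.14. ZWF1, glucose-6-phosphate dehydrogenase, which makes the first NADPH of the pentose phosphate pathway, read 3.12, 3.06, 2.43 and 3.01 (mean 2.91 ± 0.14, SE, n = 4). Some of the later steps split by isozyme. The stress-inducible copies SOL4 (2.65), GND2 (1.55) and NQM1 (2.45) rose, while the housekeeping copies SOL3 (-1.04), GND1 (-0.65) and TKL1 (-1.12) fell. All 4 arrays of each of these 6 genes lay on the same side of 0. Of their partners, TKL2, the other copy of TKL1, rose only by 0.22, and TAL1, that of NQM1, was not called (0.06). The steps that interconvert pentoses fell further, with RKI1 (ribose 5-phosphate isomerase) at -3.09, -3.23, -1.55 and -2.04 and RPE1 (ribulose 5-phosphate epimerase) at -0.71, -0.47, -2.30 and -2.04. Of the NADPH sources outside the pathway, ALD6, the cytosolic aldehyde dehydrogenase, fell by 1.80 ± 0.09 (SE, n = 4). MAE1, the mitochondrial malic enzyme, read -2.12, -1.64, -3.92 and -3.70 (mean -2.84 ± 0.11, SE, n = 4), a steeper fall on the Cy3 arrays. IDP2, cytosolic isocitrate dehydrogenase, rose by 0.75.

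Enzymes that reduce aldehydes and quinones rose almost without exception. Of 24 measured members, 23 were raised, 17 past 2-fold, and ADH7 (-0.25) was lowered (median 1.68). AAD4, an aryl-alcohol dehydrogenase, read 4.43, 4.83, 5.16 and 4.73, and OYE3, an old yellow enzyme that reduces enones, 4.08, 4.36, 4.60 and 4.60. Both varied little between arrays. AAD6 rose by 4.50 and the adjoining ORF YFL057C by 4.75, which the name table treats as parts of the same gene. GRE2, a methylglyoxal reductase, rose by 3.91 and YDL124W, an alpha-keto amide reductase, by 3.81. In the same family AAD10 (1.88) and AAD3 (1.87) rose less, and AAD14 (0.47) and AAD15 (0.31) less again. These genes, like HXT6 and HXT7, the histones, CUP1-1 and CUP1-2 and most ribosomal protein pairs, have near-identical copies, and shared probe signal was not tested. The drug pumps were a mixed set, with 6 of 20 raised and 8 lowered. FLR1 rose by 2.55 and ATR1 by 1.39, whereas PDR5, the main pleiotropic drug pump, fell on average by 0.65, with 0.49 on replicate 3 and -1.16 to -0.92 on the other arrays.

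Stress regulators were mostly raised by small amounts. Of 30 regulators 21 were raised, 4 past 2-fold, and 5 lowered, with a median of 0.34. YAP1 itself read 2.28, 2.32, 2.06 and 2.20 (mean 2.21 ± 0.09, SE, n = 4, 4.64-fold), and HSF1, the heat shock factor, 1.23, 1.15, 1.06 and 1.22. Both were even across the arrays. CIN5 and CAD1, members of the Yap family, rose by 1.46 and 1.11, and RPN4, the activator of proteasome genes, by 0.80. MSN2 rose by 0.35 and MSN4 by 0.45, both less than 2-fold. SKN7, the partner of Yap1 at peroxide genes, fell by 0.56 with -0.19, -0.43, -0.75 and -0.89, below 0 on all 4 arrays, although not past the threshold without a dye term in the fit.

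Small stress proteins and disaggregases were among the steepest groups. Of 14 hydrophilins and small membrane stress proteins 13 were raised, 9 past 2-fold (median 2.66), and of 8 small heat shock proteins and Hsp104, 6 were raised, all 6 past 2-fold (median 3.22). HSP12, which protects membranes, read 5.16, 4.99, 5.58 and 5.99 (mean 5.43 ± 0.14, SE, n = 4, 43.1-fold). DDR2 read 5.86, 5.86, 3.73 and 3.99, higher on the Cy5 arrays than on the Cy3 arrays. TMA10 rose by 4.36 and STF2, which stabilises the inhibited ATP synthase, by 3.84. Among chaperones, HSP31 (a methylglyoxalase and chaperone) rose by 4.03, HSP42 by 3.92, HSP26 by 3.58 and the disaggregase HSP104 by 3.05. HSP32 (0.09) and SNO4 (0.02), relatives of HSP31, were not called. The Hsp70 system was divided, with 15 of 27 members raised and 7 lowered. The inducible SSA4 read 3.19, 4.43, 3.54 and 3.03, and the Hsp110 SSE2 1.58, 1.78, 2.05 and 2.31. The ribosome-bound SSB1 and SSB2 fell by 1.46 and 1.23, with 0.20 and 0.21 on replicate 3 and values below -1 on the other 3 arrays. Their partners ZUO1 (-0.87) and SSZ1 (-1.31) also fell. HSP82, the inducible Hsp90, rose by 2.16 and its constitutive copy HSC82 by 0.71.

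Reserve carbohydrate genes rose, and the main hexose transporter genes fell. All 7 trehalose genes were raised (median 1.19), both those that make the sugar, TSL1 at 2.82 and TPS1 at 2.20, and NTH1, which breaks it down, at 2.14, 1.97, 2.61 and 2.47. Of 14 glycogen genes 12 were raised and 2 lowered, with the branching enzyme GLC3 at 2.27 and the synthase GSY2 at 1.96. The glycogen list differed by array, with medians of 1.28 and 1.32 on the Cy5 arrays and 0.11 and 0.78 on the Cy3 arrays. GLK1, glucokinase, rose by 3.23 and HXK1 by 1.87, while HXK2, the hexokinase of cells growing on glucose, was at 0.0051 and was not called. Of 18 genes for hexose transport and kinases 10 were lowered, 5 raised and 3 not called (median -0.25). The hexose transporters HXT2 (-2.62), HXT3 (-2.08), HXT1 (-1.98) and HXT4 (-1.48) fell, HXT1 with -1.90, -1.57, -2.21 and -2.24, while HXT5 (0.57) and HXT9 (0.32) rose. In glycolysis and fermentation 11 of 27 genes were raised and 8 lowered, with array medians of 0.82 and 0.82 on the Cy5 arrays and -0.35 and -0.55 on the Cy3 arrays, so that no direction can be given for that list.

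Genes for protein breakdown rose as whole complexes. All 14 subunits of the proteasome core particle were raised, 12 past 2-fold (median 1.59), within a narrow range from PUP3 (1.18) to PRE8 (2.07). PRE8, an alpha-ring subunit, read 2.52, 2.43, 1.34 and 1.98. All 19 subunits of the regulatory particle were raised, 10 past 2-fold (median 1.28), and here the arrays parted by dye. The list medians were 0.97 and 0.56 on the Cy5 arrays and 1.76 and 1.89 on the Cy3 arrays. RPN2, the largest mean of the list at 1.84, read 0.79, 0.56, 3.27 and 2.75. SEM1 (0.20, -0.04, 2.29 and 3.07) was near 0 on the Cy5 arrays, as was RPN11, the deubiquitinase of the lid (0.19 and 0.07 there, and 2.27 on replicate 4). Of 27 assembly and ubiquitin genes 24 were raised and 1 lowered. UBI4, polyubiquitin, read 3.45, 2.85, 3.02 and 3.54 (mean 3.22 ± 0.18, SE, n = 4). The conjugating enzymes UBC5 and UBC4 rose by 2.33 and 1.68, the assembly factor UMP1 by 1.80 and the segregase CDC48 by 1.38. POC4, an assembly chaperone of the core particle, was the lowered member at -1.04.

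Autophagy and vacuolar genes rose with them. Of 24 autophagy genes 21 were raised, 6 past 2-fold, and 1 was lowered (median 0.79). ATG8, the membrane-linked protein whose amount sets the size of autophagosomes, read 3.16, 3.02, 3.10 and 3.09, the within a narrow band on all 4 arrays. The kinase genes ATG1 (1.17) and ATG13 (1.15) and the cargo receptor ATG19 (1.42) rose less. Of 12 genes in the vacuolar protease list 10 were raised (median 1.37). APE1, an aminopeptidase carried to the vacuole by the Cvt form of autophagy, read 4.29, 4.08, 3.80 and 4.10 (mean 4.07 ± 0.09, SE, n = 4, 16.8-fold), and the proteases PEP4 and PRB1 rose by 2.25 and 2.01.

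Most iron genes rose, while copper and zinc genes were mixed. Of 28 iron uptake and siderophore genes 21 were raised, 7 past 2-fold, and 5 lowered (median 0.54). HMX1, the haem oxygenase, read 2.17, 2.62, 2.70 and 3.10, and FRE1, a plasma membrane ferric and cupric reductase, 2.21, 3.30, 1.97 and 1.67. FIT2 (2.26) and FIT3 (1.51), cell wall mannoproteins that hold siderophores, rose, but FIT1 read 0.05, 0.44, -2.36 and -2.42. The mean of FIT1, -1.07 ± 0.34 (adjusted p = 0.012), was not called without replicate 3 (estimate -0.76) or without replicate 4 (estimate -0.74). FET4, the low-affinity iron transporter, fell by 2.31 with all 4 arrays at or below -1.55. Of 22 genes of iron-sulfur cluster assembly 16 were raised and 3 lowered, led by the scaffold ISU2 (2.26, 2.86, 2.45 and 1.52), the late-acting IBA57 (1.81) and the cytosolic scaffold NBP35 (1.54). Of 20 copper and zinc genes 5 were raised, 7 lowered and 8 not called (median -0.12), with array medians of 0.05 and 0.19 on the Cy5 arrays and -0.34 and -0.29 on the Cy3 arrays, so that no direction can be given for that list. The zinc uptake genes ZRT1 (-1.35) and ZRT2 (-1.58) and their activator ZAP1 (-0.65) fell, the vacuolar zinc exporter gene ZRT3 was not called, and COT1 (0.98), which moves zinc and cobalt into the vacuole, rose. The metallothionein ORFs CUP1-1 and CUP1-2 rose by 1.69 and 1.65.

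The largest fall was that of MET6, methionine synthase. Its treated intensity was 184 to 357 against 2270 to 3644 untreated, and its ratios were -4.31, -2.97, -3.21 and -3.30 (mean -3.45 ± 0.19, SE, n = 4, 10.9-fold lower, adjusted p = 5.8e-09). Replicate 1 was the lowest of the 4, and no array came near 0. MET6 was not alone in its pathway: of 23 methionine cycle and one-carbon genes 18 were lowered, 6 past 2-fold, and 2 raised (median -0.87). SAM1, which makes S-adenosylmethionine, read -2.60, -2.41, -3.45 and -2.97. Its close copy SAM2 read -1.84 and -1.52 on the Cy5 arrays and -0.07 and 0.14 on the Cy3 arrays. SHM2, the cytosolic serine hydroxymethyltransferase that charges folate with 1-carbon units, fell by 3.18 and the folate enzymes MTD1 (-2.23) and MIS1 (-2.18) followed. GCV2, of the glycine cleavage system, read -0.60, -0.67, -3.01 and -3.24. In contrast, sulfate assimilation and cysteine synthesis showed no common direction, with 8 of 26 genes raised and 6 lowered and a median of 0.03. STR2, which works in the transfer of sulfur from cysteine to homocysteine, rose by 1.45.

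Nucleotide synthesis fell broadly. Of 22 purine genes 20 were lowered, 13 past 2-fold, and 1 raised (median -1.34). ADE17, which catalyses the last steps to IMP, read -2.39, -1.82, -4.31 and -4.31, the last pair being the lowest ratio on those arrays. HPT1, which salvages hypoxanthine and guanine, read -2.97, -3.24, -3.17 and -2.85 (mean -3.06 ± 0.07, SE, n = 4, 8.34-fold lower), and AAH1, adenine deaminase, fell by 2.56. ADE4, the committed step, fell by 1.81. The raised member was ADE16, the copy of ADE17, at -0.20, 0.09, 1.49 and 0.93, which is near 0 on the Cy5 arrays. Of 13 pyrimidine genes 10 were lowered and 2 raised. The 10 include URA3 (-0.15), which the strain lacks and whose spots had the low intensities given above, so that its call is no measure of the pathway. URA1, dihydroorotate dehydrogenase, read -3.24, -2.81, -2.70 and -3.01, and URA7, CTP synthase, -2.56, -3.30, -1.23 and -2.02. The raised members were the minor isozymes URA8 (1.21) and URA10 (1.47), on all 4 arrays.

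Amino acid and nitrogen genes gave large values in both directions. Of 18 amino acid permease genes 10 were raised, 3 lowered and 5 not called (median 0.47), the lowered ones including TAT1 (-0.99) and HIP1 (-0.79). Of 13 ammonium and nitrogen genes 7 were raised, 1 lowered and 5 not called (median 0.65). GAP1, the general amino acid permease, read 3.54, 2.31, 4.06 and 3.73, and GDH2, the glutamate dehydrogenase that releases ammonium, 3.89, 1.83, 4.10 and 3.94. Replicate 2 was the lowest for both. GLN1, glutamine synthetase, rose by 2.09, the urea transporter DUR3 by 2.11 and the permease AGP1 by 2.30, whereas GLT1, glutamate synthase, fell by 2.03. Of 17 arginine and lysine genes 11 were raised and 4 lowered, with ARG3 at 2.13 and LYS20 at 1.88. Of 32 genes for branched-chain, aromatic and histidine synthesis 11 were raised and 16 lowered, with LEU1 at -2.37 (-3.04, -3.17, -1.12 and -2.16) and ILV3 at -2.05. The 32 include LEU2 and HIS3, which the strain lacks in whole or in part, and neither was called.

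Lists for ribosome production and translation were mostly lowered. All 25 RNA helicases and small nucleolar proteins were lowered, 15 past 2-fold (median -1.31). DBP2, a helicase of RNA processing and decay, read -3.45, -2.95, -2.86 and -3.45 (mean -3.18 ± 0.13, SE, n = 4). The fall of this list was steeper on the Cy5 arrays (medians -1.63 and -1.74) than on the Cy3 arrays (-0.70 and -0.65), with NOP58 at -2.61 and -2.35 against -0.077 and -0.54. Of 15 RNA polymerase I genes 14 were lowered, led by the large subunits RPA135 (-2.24) and RPA190 (-2.01), and of 22 RNA polymerase III genes 14 were lowered and 5 raised. The raised ones included the polymerase III repressor MAF1 (0.32). The array medians of the polymerase III list were -0.88 and -1.03 on the Cy5 arrays and -0.28 and -0.17 on the Cy3 arrays. RNA polymerase II differed, with 5 of 10 genes lowered, some of them subunits shared with the other polymerases, 1 raised and 4 not called, among them the largest subunits RPO21 (0.06) and RPB2 (-0.07). All 21 tRNA synthetases were lowered (median -1.11), as were 26 of 32 initiation factors (median -0.54) and 13 of 18 elongation and termination factors (median -0.94). The array medians were -0.96, -1.01, -0.45 and -0.50 for initiation and -1.29, -1.26, -0.33 and -0.96 for elongation and termination. In the cytosolic ribosome 72 of 76 large subunit and 54 of 55 small subunit genes were lowered, with medians of -1.50 and -1.49. RPS7A read -3.70, -4.31, -2.84 and -2.56 and RPS26B fell by 2.60. The mitochondrial ribosome list leaned the other way by a small amount, with 41 of 64 genes raised and 3 lowered and a median of 0.25. Its array medians were 0.09 and 0.02 on the Cy5 arrays and 0.44 and 0.52 on the Cy3 arrays. The small rise thus came mainly from the Cy3 arrays. Of the 41 raised genes, 22 were above 0 on every array, and none was past 2-fold.

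Cell cycle genes fell while those for repair of DNA rose. All 11 histone genes were lowered (median -1.08), HTA2 with -3.92, -2.68, -2.37 and -3.04 and HTB2 with -3.01, -2.00, -3.13 and -3.21. Of 25 cyclins and cyclin regulators 22 were lowered and 1 raised. The G1 cyclins CLN2 (-2.32, -1.98, -1.88 and -2.22) and CLN1 (-1.79) and the mitotic cyclin CLB2 (-1.43) fell, while CLN3, the upstream G1 cyclin, was at -0.03 and not called. The raised member was PCL5 (1.97), the cyclin that targets the activator Gcn4 for breakdown. HO, the mating-type switching endonuclease, which is transcribed in late G1, fell by 3.13 with -3.21, -3.09, -3.04 and -3.17, some of the most even values among the large falls. Replication genes were mixed, with 7 of 32 raised and 13 lowered. RFA1 and RFA2, of the single-stranded DNA binding complex, rose by 1.36 and 1.64, and MCM7 of the helicase fell by 1.23. Of 24 ribonucleotide reductase and DNA damage genes 19 were raised and 3 lowered (median 0.82). RNR4 read 1.68, 0.61, 4.18 and 2.92 and RNR2 1.73, 1.59, 1.73 and 2.05, both small subunits. MAG1, a DNA glycosylase, rose by 2.21, and HUG1, a checkpoint-induced inhibitor of the reductase, by 1.37 ± 0.30 (SE, n = 4).

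Lists of the daughter cell wall and of membranes held more lowered than raised genes. Of 37 cell separation and cell wall genes 19 were lowered, 12 past 2-fold, and 13 raised, with array medians of -0.29, -0.12, -0.54 and -0.82. Over all tested ORFs 38.5% were lowered, 5.98% past 2-fold, and 35.8% raised, so the share of raised genes in this list was near that of all ORFs. EGT2 (-1.86, -1.36, -3.24 and -3.13) and DSE4 (-1.98), a glucanase that frees the daughter cell, fell, as did the transcription factor ASH1 (-1.92). The cell wall integrity kinase SLT2 rose by 1.49 and the wall protein SED1 by 1.83. In ergosterol synthesis 18 of 26 genes were lowered and 4 raised, with ERG11, the azole target, at -1.20, -1.31, -2.03 and -1.99. Of 26 fatty acid and membrane lipid genes 17 were lowered, and the steepest were of sphingolipid synthesis, the hydroxylase SUR2 (-2.13) and the ceramide synthase subunit LAC1 (-2.02). OLE1, the fatty acid desaturase, read -0.99, -1.46, -0.04 and 0.32, with a mean of -0.54. HEM13, an oxygen-dependent enzyme of haem synthesis, fell by 1.81. Of 22 genes for folding in the secretory pathway 10 were lowered and 3 raised (median -0.16). Of 25 hypoxic and anaerobic genes 11 were lowered and 8 raised, with array medians of 0.38 and 0.42 on the Cy5 arrays and -0.73 and -0.65 on the Cy3 arrays, so that no direction can be given. The repressor of these genes, ROX1, read 1.59, 2.55, 0.25 and 0.05.

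The mitochondrion itself gave no common direction. Of 42 genes of the respiratory chain and ATP synthase 20 were raised, 9 lowered and 13 not called (median 0.14). CYC1, cytochrome c, stood out at 2.23, 2.58, 2.20 and 2.25 (mean 2.31 ± 0.08, SE, n = 4, 4.97-fold), together with STF1, an ATP synthase inhibitor, at 2.32. Subunits of complex IV went both ways, with COX7 (-0.54) lowered and COX5B (0.80) raised. COX8 (-0.56) was lowered too, but not without a dye term in the fit. In the tricarboxylic acid cycle 10 of 25 genes were raised and 9 lowered. The isocitrate dehydrogenase genes IDH2 and IDH1 rose by 2.15 and 1.50, MDH1 by 1.44, and the iron-sulfur subunit gene SDH2 of succinate dehydrogenase fell by 0.41. Of 27 peroxisome and beta-oxidation genes 15 were raised and 6 lowered, by at most 1.28 (CAT2, carnitine acetyltransferase).

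**Figure D2:**
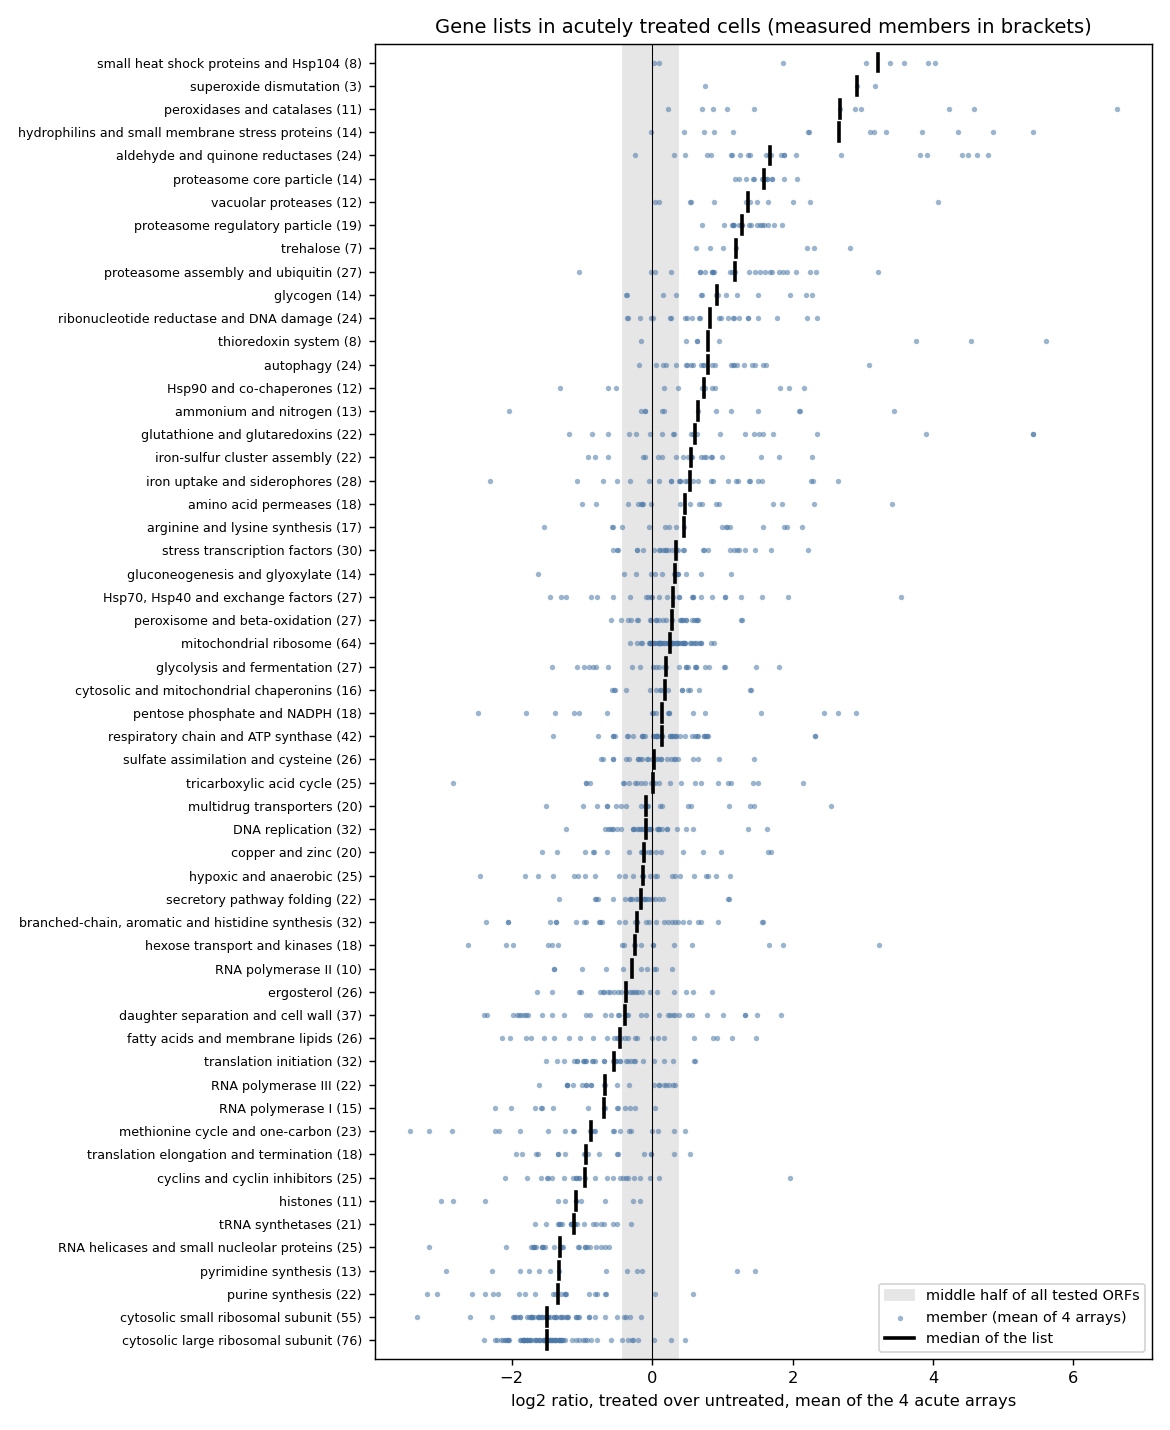
Mean log2 ratio of the 4 acute arrays for the measured members of each gene list but those of the strain, mating type and reference genes (points), with the list median (black bar), ordered by median. The grey band holds the middle part of all 6242 ORFs, from the lower to the upper quartile. Small heat shock proteins (median 3.22), superoxide dismutation (2.91) and peroxidases (2.68) are at the top and the cytosolic ribosomal subunits (-1.50 and -1.49) at the bottom, and several lists near the middle, such as pentose phosphate and NADPH, spread widely to both sides.

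Isozymes were compared in pairs. Of 44 measured pairs, 9 had 1 member raised and the other lowered, 19 had both raised and 4 had both lowered. Over all tested ORFs 35.8% were raised and 38.5% lowered, so split pairs also arise between unrelated genes. Whether isozymes split more often was not tested. In 22 pairs the members differed by over log2 1 on every array, in the same order. The widest gap was between the glutathione transferases GTT2 and GTT1, 3.85 ± 0.86 on average over the arrays (SD, n = 4). ADE16 lay above ADE17 by 3.79 on average, from 1.91 to 5.80 by array, and TSA2 above TSA1 by 3.73, from 3.41 to 4.06. SOL4 lay above SOL3 by 3.69 ± 0.35 and URA8 above URA7 by 3.49 ± 1.10 (SD, n = 4). In carbon metabolism PGM2, the major phosphoglucomutase, rose by 2.19 and PGM1 fell by 0.37, and the glycerol 3-phosphate dehydrogenase GPD1 rose by 1.03 and GPD2 fell by 0.89. In leucine synthesis LEU9 (-2.05) was lowered and LEU4 (0.94) raised, the latter with -0.25 on the lowest array and 1.89 on the highest. Of the homocitrate synthases LYS20 rose by 1.88 while LYS21 (-0.04) was not called. For the enolases ENO1 and ENO2 and the IMP dehydrogenases IMD3 and IMD4 the order of the members changed between arrays.

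**Figure D3:**
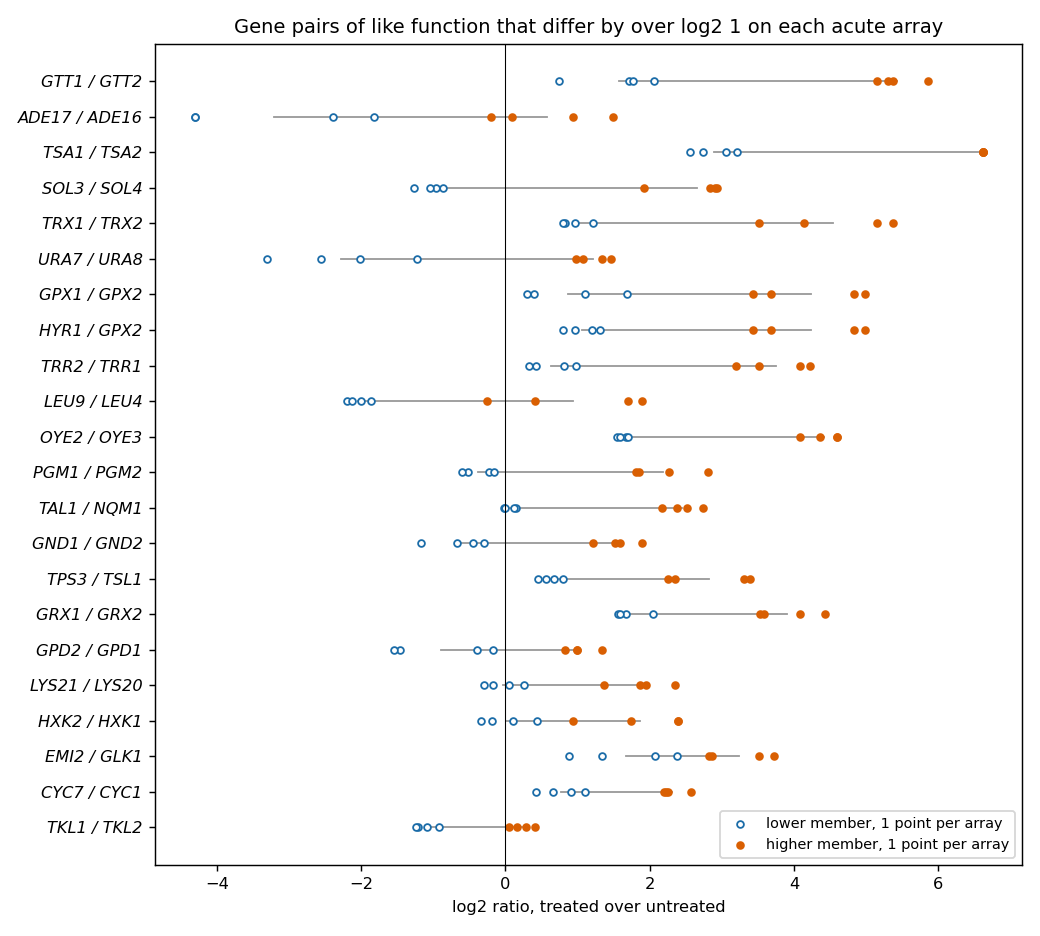
Log2 ratios on the 4 acute arrays for the 22 gene pairs of like function whose members differed by over log2 1 on each array. Open circles are the lower member, filled circles the higher member (1 point per array), and the grey line joins their means. The points of the members do not overlap in any of these pairs, and for SOL3 and SOL4, URA7 and URA8, and GND1 and GND2 they lie on opposite sides of 0.

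The same dose after pretreatment gave far smaller ratios. The standard deviation of the log2 ratios on an array was 0.946 in acute cells and 0.425 in adapted cells. In the test of the difference 1919 of 6212 ORFs (30.9%) were higher in acute than in adapted cells and 1868 (30.1%) were lower. These 3787 calls became 1947 with no dye term in the fit and 394 where a difference beyond log2 1 was required. SRX1 was higher in acute cells by 4.89 ± 0.23 (SE, n = 4 and 4, adjusted p = 1.5e-08), having a mean of 0.72 in adapted cells. ECM4 was higher by 4.26, OYE3 by 4.08, YFL057C by 4.06 and AAD6 by 3.92. At the other end MET6 was at 0.27 in adapted cells, a difference of -3.72 ± 0.26, and MAE1 (-2.98), RPS7A (-2.96), SAM1 (-2.85) and PHO3, an acid phosphatase (-2.83), followed. Among the gene lists, 11 of 11 peroxidases and catalases, 23 of 24 aldehyde and quinone reductases and all 33 proteasome subunits were higher in acute cells. Of the purine genes 19 of 22 were lower, of the RNA helicases and small nucleolar proteins 25 of 25. Other lists did not follow. Arginine and lysine synthesis had a median of 0.46 in acute and 0.73 in adapted cells, with 7 of 17 genes higher and 6 lower, and sulfate assimilation medians of 0.03 and 0.28, with 6 of 26 higher and 11 lower. The medians of the multidrug transporter, tricarboxylic acid cycle and pentose phosphate lists were also farther from 0 in adapted cells.

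Some genes did not follow this pattern. RNR2 was at 1.77 in acute and 2.05 in adapted cells, a difference of -0.28 ± 0.26 (adjusted p = 0.38). HUG1 was lower in acute cells, at 1.37 against 3.51, a difference of -2.14 ± 0.43 (SE, n = 4 and 4). TSA2 was high in both, at 6.62 and 3.85. Some genes lay on opposite sides of 0 in the protocols on every array, among them FRE1 (2.29 in acute and -0.58 in adapted cells), ISU2 (2.27 and -0.51) and CYC1 (2.31 and -0.30). ERG11 (-1.63 and 0.37), HXT3 (-2.08 and 0.29) and HEM13 (-1.81 and 0.55) did the reverse.

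The low dose alone stood further away. Against pretreated cells 1968 of 6225 ORFs (31.6%) were higher in acute cells and 2042 (32.8%) lower, 4010 in all. These became 2225 with no dye term and 539 beyond log2 1. Both contrasts use the same acute arrays. Across ORFs the opposite-dye arrays correlated at -0.75 to -0.64 in pretreated cells and at -0.33 to -0.13 in adapted cells, against 0.60 to 0.73 in acute cells. In the comparison groups the ratios thus followed the orientation more than the treatment. GPX2 was higher in acute cells by 5.85 ± 0.19 (SE, n = 4 and 4, adjusted p = 5.6e-10), with -1.61 in pretreated cells, SRX1 by 5.80 and OSI1 by 5.29. The differences of MET6 (-3.63) and DBP2 (-3.27) were the lowest. SOD1 was at -0.78, SOD2 at -0.47 and TSA1 at -0.80 in pretreated cells, each on the other side of 0 from acute cells.

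**Figure D4:**
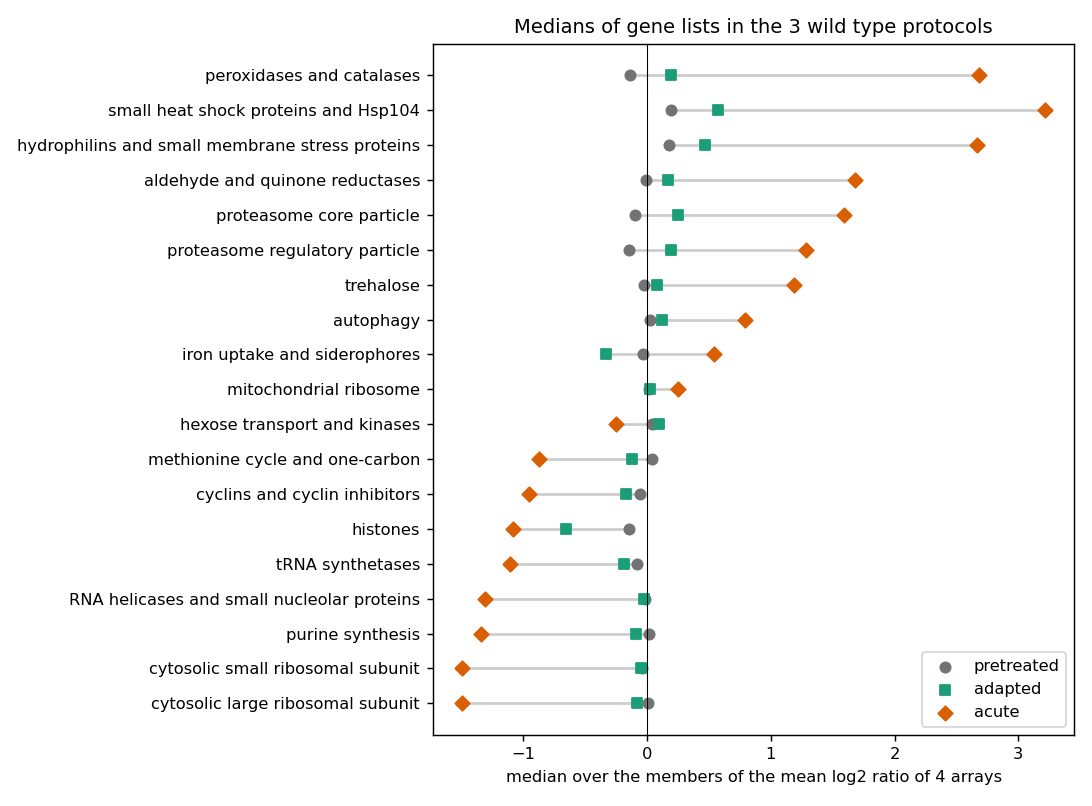
Medians of selected gene lists in pretreated (circles), adapted (squares) and acute (diamonds) wild type cells, each the median over list members of the mean log2 ratio of 4 arrays. The acute medians lie farthest from 0 in every list shown. Peroxidases and catalases run from -0.13 over 0.19 to 2.68, and histones from -0.14 over -0.66 to -1.08.

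The dye orientation set how well a single gene is known. Over all tested ORFs the standard deviation of the mean log2 ratio was 0.853, and that of the orientation component (the Cy5 mean minus the Cy3 mean, divided by 2) was 0.369. For 1976 ORFs the orientation component was larger than the mean, and 770 of these were called. The ORFs in which it exceeded the mean by most included YBT1, a vacuolar ABC transporter, with -1.66 and -1.42 on the Cy5 arrays against 1.61 and 0.90 on the Cy3 arrays. YKE2, a prefoldin subunit, read -1.16, -1.23, 1.52 and 1.30, and SSE1, the constitutive Hsp110, -1.44, -0.89, 1.28 and 0.70. TDH3 (1.59, 1.50, -0.05 and -2.34), CWP2 (1.14, 1.18, -1.93 and -1.75), RPL41A, CAR2 and ZEO1 were of the same kind. None of these 8 genes was called. Their arrays disagreed in sign by orientation, so that a direction for them cannot be read from these data.

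**Figure D5:**
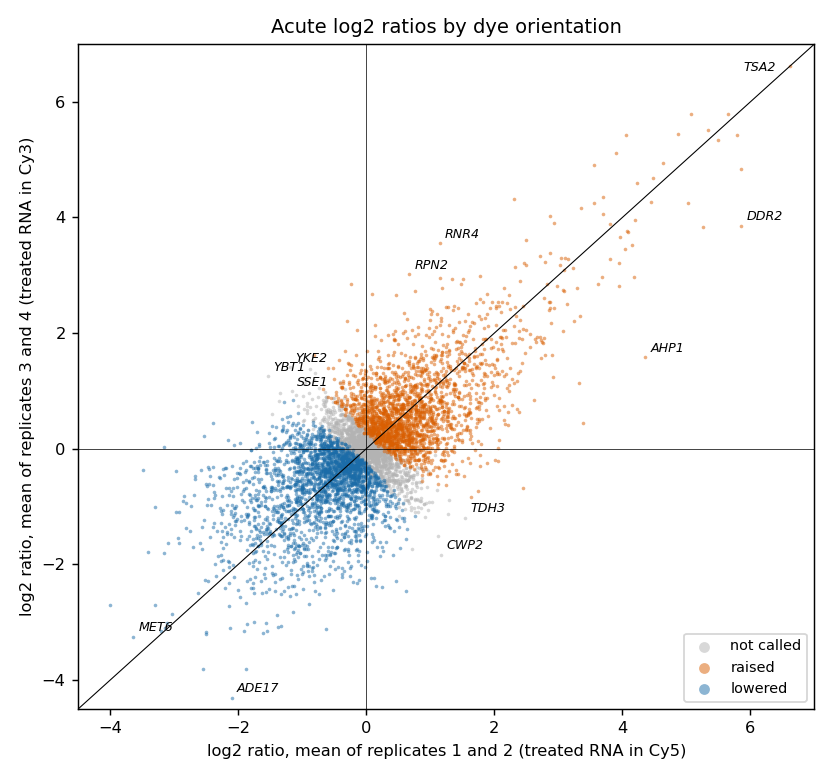
Mean log2 ratio of the Cy5 arrays (horizontal) against that of the Cy3 arrays (vertical) for 6242 ORFs. Orange ORFs were raised, blue lowered and grey not called, and the diagonal marks equal values. TSA2 lies on the diagonal at 6.62, DDR2 and AHP1 lie below it and RPN2 and RNR4 above it, and YBT1, YKE2, SSE1, TDH3 and CWP2 lie in the quadrants of opposite sign.

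Genes often used as references were not all steady. Of 12, 4 were raised, 4 lowered and 4 not called (median 0.04). ACT1, actin, read 0.74, 0.66, 0.92 and 1.08 (mean 0.85 ± 0.07, SE, n = 4, 1.80-fold) and was at -0.12 in adapted cells. PDA1 rose by 0.61 and TAF10 fell by 0.31. TUB2 (0.06) and TFC1 (0.02) had means near 0 that came from Cy5 arrays below and Cy3 arrays above it.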

How the data were processed

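Poly(A) RNA of treated and sham-treated cells was labelled with Cy3 and Cy5 and hybridised to Agilent yeast arrays, with the dyes swapped on 2 of the 4 arrays of each group. The authors subtracted background and quantile normalised the arrays, and the deposited intensity of both channels is given for each ORF. A second deposited table holds a natural log ratio for each of 10807 unnamed spots. Its log base and direction were inferred by matching it to the ORF table, its normalisation is not given in the sources used here, and it is not centred (medians of the acute arrays -0.061 to 0.257).

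For each ORF the log2 ratio of treated over untreated intensity was formed from the deposited values, with no filter on dim ORFs. limma 3.58.1 in R 4.3.3 fitted the means of the 3 groups of wild type arrays (12 arrays) with a dye term for each ORF shared by the groups. Acute means were tested against 0 and against the other groups, two-sided, with Benjamini-Hochberg adjustment over all ORFs tested. The variance estimates of the study's own error model were not used. ORF names came from RefSeq (5751 of 6242 matched). Genes were named by 4 rules: the 15 largest rises and 15 largest falls with the same sign on 4 of 4 arrays, members of 60 gene lists (1309 of 1319 entries measured) and of isozyme pairs, the 10 ORFs with the largest orientation component relative to their mean, and the 8 largest differences from each other protocol in each direction. The arrays, lists and pairs were chosen with earlier results of these data known. The fit was tested on simulated data. Figures were drawn with matplotlib 3.10.9. The 4 arrays of a group are separate cultures, and their number limits the precision.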

Additional observations from a re-analysis of the deposited data

Results flagged for a closer look

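On 9 of the 240 named genes that could be tested, a single acute array lay far from the other 3 by Dixon's criterion, which chance meets in about 1 group in 20. These were replicate 2 for CYC1 (2.58), GDH2 (1.83) and HTB2 (-2.00), replicate 3 for SOL4 (1.93), ZWF1 (2.43), PDR5 (0.49) and HXT5 (0.069), replicate 1 for YCF1 (1.56) and replicate 4 for ENO2 (-1.04).

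The 241 named genes were each set against adapted and pretreated cells where measured. In 41 of these comparisons all 4 acute arrays lay on the same side of 0 and all 4 arrays of the other protocol on the opposite side. The difference was also past the threshold in limma. Some genes were named for the size of these same differences, and the share over all ORFs was not counted, so the 41 is only a description. Against adapted cells the genes higher in acute cells served metals and respiration (FRE1 by 2.87, ISU2 by 2.78, CYC1 by 2.61, CCS1 by 1.00), glutathione and export (GSH1 by 1.71, GSH2 by 1.12, YCF1 by 1.66, ATR1 by 1.98) and other functions (GSY2 by 2.29, HSC82 by 1.15, ACT1 by 0.97, MSN2 by 0.51). Those lower in acute cells differed by -2.83 for PHO3, -2.37 for HXT3, -2.36 for HEM13, -2.13 for HXT1, -2.01 for ERG11, -1.19 for GRX8, -0.89 for GND1 and -0.71 for SDH2.

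Against pretreated cells the defence genes were higher in acute cells, GPX2 by 5.85, SRX1 by 5.80, GRE2 by 4.61, SOD1 by 3.96, TSA1 by 3.69, SOD2 by 3.38 and GSH1 by 2.04. The others that were higher were CYC1 by 2.82, ISU2 by 2.63, CUP1-1 by 2.26, YCF1 by 1.71, MDH1 by 1.54, HSC82 by 1.28 and AAD15 by 0.47. The differences of the genes lower in acute cells were -2.77 for PHO3, -2.67 for HEM13, -2.34 for SUR2, -2.23 for HXT1, -1.97 for ERG11, -1.17 for SOL3 and -0.72 for ZAP1. Both sets of comparisons share the acute arrays.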

How the results depend on the processing

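The count of called ORFs, 4641, stayed within 1.5 times under all alternatives but a fold requirement. It was 4032 with the acute arrays fitted alone, 4282 with all 24 arrays, 4741 with a dye term for each group, 3185 with no dye term, 4630 with arrays centred on their median, 4641 after loess within each array (4532 of the same ORFs), 4650 with an intensity trend and robust variance, and 3683 of 4681 with the dimmest 25% of ORFs left out. Leaving out an acute replicate gave 4336 to 4619. With log2 1 required it was 736 (363 raised and 373 lowered), and the table of spots gave 4335 raised. Of the differences, 3787 against adapted and 4010 against pretreated cells were called. These fell to 1947 and 2225 with no dye term and to 394 and 539 with log2 1 required. The cause was not tested.

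With a replicate block 4569 ORFs were called (2205 raised and 2364 lowered), and 3693 and 3928 in the differences. The deviations of same-numbered arrays correlated at -0.55 to -0.06 between acute and adapted cells, at -0.16 to 0.62 between acute and pretreated cells and at 0.19 to 0.31 between adapted and pretreated cells. The last were all above 0.1, but both comparisons made here involve the acute arrays, where the correlations were not, and those arrays were taken to share only a number. Of the named genes that were called, the block took the call from none.

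3 alternatives were chosen after seeing the data. A call was kept by 3373 ORFs where the same sign on 4 of 4 arrays was asked for. With only the Cy5 arrays of acute cells kept, beside all pretreated and adapted arrays, 4241 ORFs were called. With only the Cy3 arrays of acute cells kept 3875 were called, 3 of them opposite to the call with all arrays. The dye term of these fits came from the pretreated and adapted arrays, so they do not compare the raw orientations.

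Without a dye term CTT1, GTT3, ADH7, SKN7, RPN11, SEM1, FIT1, SAM2, ADE16, LEU4, ROX1, COX8, ENO1, OLE1, PDR5 and URA3 were not past the threshold. CTT1 and URA3 were also not called with the acute arrays alone or with all 24 arrays, and ENO1 not without replicate 1 (0.66), 2 (0.62) or 3 (0.62). TAL1 (0.20), TUB2 (0.21) and ENO2 (0.77) were called only after loess, and for ENO2 without replicate 4 (1.06). Leaving out 1 replicate also gave calls for CLN3 (-0.32, replicate 3), YBT1 (-0.32, replicate 3), TDH3 (0.90, replicate 4) and CWP2 (-0.48, replicate 2). CWP2 was called with the acute arrays alone or a dye term for each group, and ZEO1 (-0.19) with the latter or the replicate block.

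In the alternatives run for named genes, which leave out the fits with acute arrays of a single orientation, the direction turned only where a gene was not called. Among called genes, CTT1, FIT1, ADE16 and URA3 had a mean of the opposite sign on the Cy5 arrays, and SAM2 and OLE1 on the Cy3 arrays. After loess the direction turned for LYS21 (0.011), CLN3 (0.034), RPL41A (0.11) and SSE1 (0.0059), none of which was called. With an acute replicate left out the estimate of the fit, corrected by the shared dye term, ranged from -0.069 to 0.11 for HXK2. It ranged from -0.32 to 0.11 for CLN3 and from -0.10 to 0.0021 for LYS21. For SSE1 it ranged from -0.21 to 0.029, for RPL41A from -0.40 to 0.15, for CAR2 from -0.037 to 0.29 and for TDH3 from -0.14 to 0.90. For HSP32 the range was -0.0050 to 0.14, for SNO4 -0.0056 to 0.048, for TFC1 -0.026 to 0.052 and for RPB2 -0.15 to 0.011. With the dimmest 25% of ORFs left out, so that fewer members were measured, the list medians of pentose phosphate and NADPH (-0.29), gluconeogenesis (-0.041) and the MATalpha genes (0.23) changed sign. The near-equal quantiles of the deposited ratios limit what the spread between arrays can show, and dim ORFs such as CTT1 are the least certain.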
